A study of Mus musculus with 2 samples.

Results

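The genes described here hold the basal layer of the epidermis to the dermis. They are *Lama3*, *Lamb3*, *Itga6*, *Itgb4*, *Col17a1*, *Dst* and *Col7a1*, found by their symbols in the gene list of the files. They are 7 of 19465 genes measured. All 7 had UMIs in both sections (a UMI, unique molecular identifier, tags 1 captured molecule), and none was left out for low counts, except that *Lamb3* fell under the minimum of 20 UMIs in the comparisons within the S1pr2 f/f K14-Cre section.

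Spatial transcriptomics was performed on 1 skin section from an S1pr2 f/f mouse and 1 from an S1pr2 f/f K14-Cre mouse, both given imiquimod (IMQ), to ask how loss of the sphingosine-1-phosphate receptor gene *S1pr2* in keratinocytes bears on psoriasis-like inflammation. Both mice carried the floxed *S1pr2* alleles, were treated from 8 weeks of age and received 62.5 mg of 5% IMQ cream daily for 7 days on back skin depilated 1 day earlier. They differed by the Cre transgene, which the keratin 14 promoter drives in basal keratinocytes and their progeny, hair follicle epithelium included. No section of untreated skin was part of this comparison, so every level below is one of IMQ-treated skin.

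With 1 section per genotype no test between genotypes was possible, and no p-value is given. All intervals are 95% intervals of counting error only. A difference whose interval leaves out equality is a difference between these 2 sections, and the spread between mice is unknown. A spot collects RNA from several cells, so fewer cells of a type and less RNA per cell cannot be told apart.

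Hemidesmosomes are the rivets of the basal keratinocyte. Inside the cell, plectin and the epidermal form of dystonin (*Dst*) tie the keratin 5 and keratin 14 filaments to the plaque. In the membrane, the integrin chains encoded by *Itga6* and *Itgb4* and the transmembrane collagen encoded by *Col17a1* reach through to the basement membrane. There they meet the laminin to which *Lama3* and *Lamb3* each give a chain, and below it the collagen encoded by *Col7a1* forms the anchoring fibrils that loop into the dermis. Inherited loss of these components gives the blistering diseases of the epidermolysis bullosa group.

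The genes lie apart in the genome (build GRCm38.p6, which is mm10, RefSeq annotation). *Dst* is on chromosome 1 from 33907888 to 34308662, *Lamb3* on chromosome 1 from 193294353 to 193343878, *Itga6* on chromosome 2 from 71786886 to 71858427, *Col7a1* on chromosome 9 from 108953586 to 108984875, *Itgb4* on chromosome 11 from 115974725 to 116008412 and *Col17a1* on chromosome 19 from 47646341 to 47692042. The position and promoter of *Lama3* are not given here. RefSeq promoter windows of 4 members were used, 1 each for *Col17a1* and *Col7a1* and 2 each for *Dst* and *Lamb3*. Shown are the 250 bases before the start of *Col17a1* and *Col7a1* and before 2 *Dst* starts. Of the 4 members with windows, *Col17a1* and *Col7a1* had opposite differences between the sections per all UMIs. *Dst* has epidermal, neuronal and muscle forms that UMIs per gene do not separate. Both *Dst* starts lie inside the gene, and no window at its first base, 33907888, is shown. Capitals mark matches on either strand to the GC box, spelled GGGCGG, and to the TATA box. The letters searched for the latter were TATAAA, and no match of one motif overlaps one of the other. No TGANTCA (the AP-1 motif) was found in any of these windows, which says only that these letters are not in them.

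Col17a1, chr19:47692043-47692292, minus strand: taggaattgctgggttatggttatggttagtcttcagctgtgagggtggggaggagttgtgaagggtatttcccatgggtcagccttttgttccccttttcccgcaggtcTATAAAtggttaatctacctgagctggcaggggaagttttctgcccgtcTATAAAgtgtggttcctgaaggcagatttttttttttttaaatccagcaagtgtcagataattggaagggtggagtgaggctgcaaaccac
Col7a1, chr9:108953336-108953585, plus strand: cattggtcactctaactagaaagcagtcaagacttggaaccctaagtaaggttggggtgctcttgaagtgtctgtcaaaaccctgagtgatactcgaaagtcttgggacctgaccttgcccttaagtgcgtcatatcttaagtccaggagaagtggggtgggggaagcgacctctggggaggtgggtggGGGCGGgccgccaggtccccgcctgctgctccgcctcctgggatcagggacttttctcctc
Dst, start nearer the 5′ end of the gene, chr1:34011345-34011594, plus strand: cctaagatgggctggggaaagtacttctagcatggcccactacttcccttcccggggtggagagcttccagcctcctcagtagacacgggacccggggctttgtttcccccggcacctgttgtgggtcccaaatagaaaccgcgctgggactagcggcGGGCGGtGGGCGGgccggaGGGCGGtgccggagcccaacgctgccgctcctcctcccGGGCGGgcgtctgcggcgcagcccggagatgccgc
Dst, start further in, chr1:34160010-34160259, plus strand: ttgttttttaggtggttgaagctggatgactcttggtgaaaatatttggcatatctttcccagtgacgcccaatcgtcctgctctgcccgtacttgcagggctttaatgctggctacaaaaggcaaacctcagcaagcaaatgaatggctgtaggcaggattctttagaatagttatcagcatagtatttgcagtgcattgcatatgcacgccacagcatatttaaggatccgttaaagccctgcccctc

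*Col17a1* held 2 TATA boxes and no GC box, *Col7a1* 1 GC box and no TATA box, and the first *Dst* window 4 GC boxes. Neither *Lamb3* window nor the second *Dst* window held any of the 3 motifs. Of 32851 promoter windows of the same length, 12.4% held a TATA box, 32.7% a GC box and 6.75% the AP-1 motif.

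The S1pr2 f/f section held 1282 spots over tissue with 5315351 UMIs and the S1pr2 f/f K14-Cre section 981 spots with 2845826 UMIs. After small detached groups and spots under 500 UMIs were left out, 1090 and 947 spots were used, with medians of 4362 and 2380 UMIs. The 2 sections share 357 spot barcodes, which are array positions and not cells. *S1pr2* itself had 25 UMIs (20.03 CPM, that is UMIs per 1000000 UMIs) and 11 UMIs (18.3 CPM) in the epidermal spots, a ratio of 0.914 (0.406 to 1.92). The sources used here do not say whether the assay's probes lie in the deleted stretch, so this does not check the labels. The 1226 olfactory, vomeronasal, taste and trace amine receptor genes were taken as a measure of background. They stood 5.62 times higher in the S1pr2 f/f K14-Cre epidermal spots, with a mean of 1.80 and 4.86 UMIs per gene. A low count in that section is therefore close to its background.

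**Figure D1:**
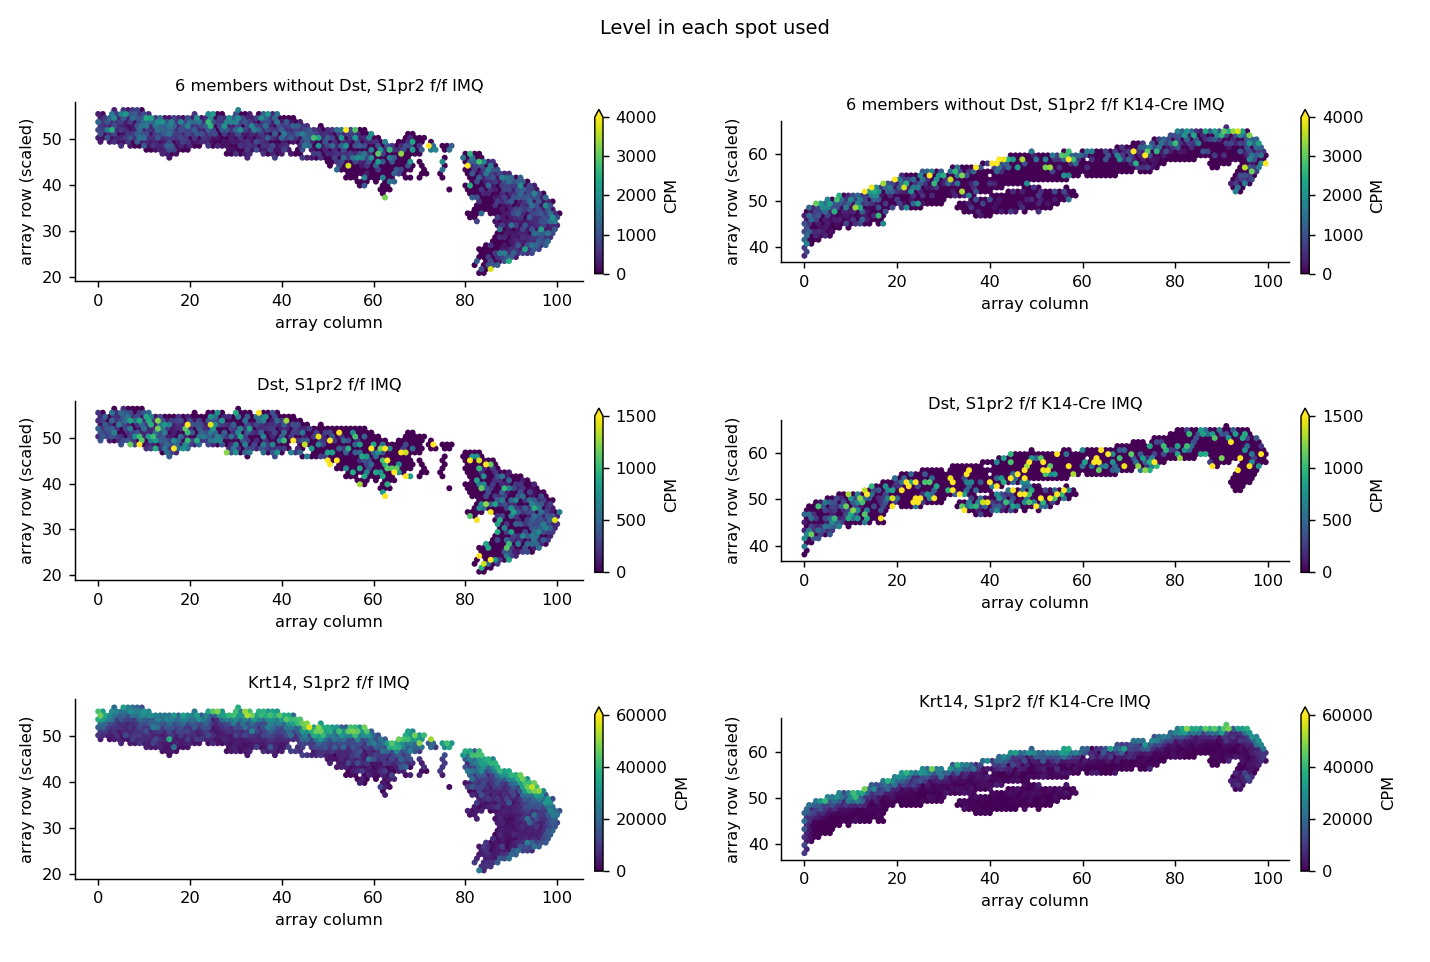
Each point is 1 spot at its array position (column against scaled row), coloured by CPM of the 6 members without *Dst* together (upper row), *Dst* (middle row) and *Krt14* (lower row), for the S1pr2 f/f section on the left and the S1pr2 f/f K14-Cre section on the right; colours stop at 4000, 1500 and 60000 CPM. The skin surface is at the top of both sections, where *Krt14* and the 6 members are brightest, while *Dst* is scattered through the full thickness; the right end of the S1pr2 f/f section curves downwards.

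By depth, the members other than *Dst* and *Lamb3* were highest in the outermost spots and the layer beneath in the S1pr2 f/f K14-Cre section. *Lamb3* had at most 12 UMIs in a depth class there, close to background. In the S1pr2 f/f section the same held only for *Col17a1*, *Itga6* and *Lama3*. Depth is the distance to the outermost tissue spots of the surface side, counted in spot spacings of 100 µm. The surface side was the edge with more UMIs of the differentiation genes *Lor* and *Krt10*, which made up 2.48% of UMIs there against 0.853% at the opposite edge (S1pr2 f/f) and 0.434% against 0.0329% (S1pr2 f/f K14-Cre). The outermost class had 179 and 195 spots.

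*Col17a1* fell with depth in both sections. In the S1pr2 f/f section its level was 396 CPM in the outermost spots, 377 at up to 2 spacings, 233 at up to 4, 167 at up to 6, 138 at up to 8 and 183 beyond. In the S1pr2 f/f K14-Cre section the same classes held 227, 222, 23.3, 25.5, 12.04 and 4.59 CPM, the last from 1 UMI. The fall came between 2 and 4 spacings there and was gradual in the other section.

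Over all spots used, *Lama3* fell from 58.7 CPM at the surface to 28.4 at 2 to 4 spacings in the S1pr2 f/f section. Without the section ends (described below) it was 40.5 CPM (16 UMIs) at the surface, 51.2 beneath and 36.4 at 2 to 4 spacings. The ratio of the outermost spots to that class was then 1.11 (0.535 to 2.28), so no fall to it is shown away from the ends. In the S1pr2 f/f K14-Cre section *Lama3* fell from 248 CPM through 79.0 to 23.3 CPM, and without the ends from 237 through 63.6 to 19.4 CPM. The outermost spots of that section held 130 of its 213 *Lama3* UMIs over tissue. *Lamb3*, the partner chain, was low throughout. It ranged between 16.6 and 33.6 CPM over the 6 depth classes of the S1pr2 f/f section with no order by depth, and had 12, 9, 3, 0, 2 and 0 UMIs from the surface inwards in the S1pr2 f/f K14-Cre section, 22.8 CPM at the surface.

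The integrin chains differed in depth from each other. *Itga6* was 253 CPM in the outermost spots of the S1pr2 f/f section, 260 CPM in the layer beneath and 79.7 CPM at 6 to 8 spacings. The S1pr2 f/f K14-Cre section held 329 CPM at the surface and 148 CPM in the layer beneath. Deeper in, it held 76.7 CPM at 2 to 4, 99.8 CPM at 4 to 6 and 36.1 CPM (9 UMIs) at 6 to 8 spacings. *Itgb4* was 141, 213, 172, 129 and 92.3 CPM over the same first 5 classes of the S1pr2 f/f section, so that its highest level lay beneath the outermost spots. Levels in the S1pr2 f/f K14-Cre section were 413 CPM at the surface, 301 CPM beneath, 71.2 CPM at 2 to 4 and 121 CPM at 4 to 6 spacings.

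*Col7a1* was 14.4 CPM (13 UMIs) at the surface and 35.8 CPM (50 UMIs) in the layer beneath in the S1pr2 f/f section, with deeper values of 18.7 to 30.7 CPM. The S1pr2 f/f K14-Cre section held 76.2 CPM at the surface and 61.5 CPM beneath, and its deeper values lay between 0 and 27.8 CPM. *Dst* ran the other way. It rose from 211 CPM at the surface to 357 CPM at 6 to 8 spacings in the S1pr2 f/f section and from 265 to 437 CPM in the S1pr2 f/f K14-Cre section. Beyond 8 spacings it was 250 and 326 CPM. Over all spots used, the interval of the ratio of the outermost spots to those held 1 in both sections (0.843, 0.662 to 1.08, and 0.812, 0.606 to 1.10). Without the section ends it lay below 1 in both, as given below.

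The deepest class needs care in the S1pr2 f/f section, whose right end curves. Of its 127 spots beyond 8 spacings, 77 lay in the outer 15% of array columns at the ends, where the outer edge of the tip is far from the edge taken as the surface. The ends also held 61 of its 179 outermost spots. Without the ends, *Col17a1* beyond 8 spacings was 55.6 CPM (3 UMIs) in place of 183, *Itga6* 74.1 in place of 176 CPM, and *Krt14* 4764 in place of 8391 CPM. *Dst* was 389 CPM there in place of 250 CPM, so that its rise with depth was larger without the ends. The ratio of the outermost spots to that class was then 0.488 (0.297 to 0.833). In the S1pr2 f/f K14-Cre section without its ends, *Dst* was 181 CPM at the surface and 349 CPM beyond 8 spacings. The ratio there was 0.518 (0.353 to 0.757). The ends of that section held 58 of its 139 spots at 4 to 6 spacings. Without them *Itga6* at 4 to 6 spacings was 60.1 in place of 99.8 CPM and *Itgb4* 158 in place of 121 CPM. *Col17a1* was 0 in place of 25.5 CPM.

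Counted against all genes, 1 of 7 members (*Col17a1*) was at least 2-fold higher in the outermost spots than beyond 8 spacings in the S1pr2 f/f section, where 9.61% of all genes tested were, and none was at least 2-fold lower, where 30.6% were. At 4 to 6 spacings as the deep class it was 2 of 7 (*Itga6* and *Col17a1*; 9.7% of all genes) with *Col7a1* at least 2-fold lower (34.8% of all genes). As for the S1pr2 f/f K14-Cre section, 5 of 6 members were at least 2-fold higher at the surface than beyond 8 spacings (33.9% of all genes) and the same 5, *Lama3*, *Itga6*, *Itgb4*, *Col17a1* and *Col7a1*, than at 4 to 6 spacings (21.2%). None of the 6 was at least 2-fold lower in either, beside 20.9% and 23.1% of all genes. The median ratio of the members was 0.922 against 0.741 over all genes in the S1pr2 f/f section, and 7.76 against 1.24 in the S1pr2 f/f K14-Cre section, for the outermost spots over those beyond 8 spacings. *Col7a1* had 0 UMIs beyond 8 spacings of the latter, which were taken as 3 over the class, so that 7.76 depends on this choice and leaves out counting error.

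**Figure D2:**
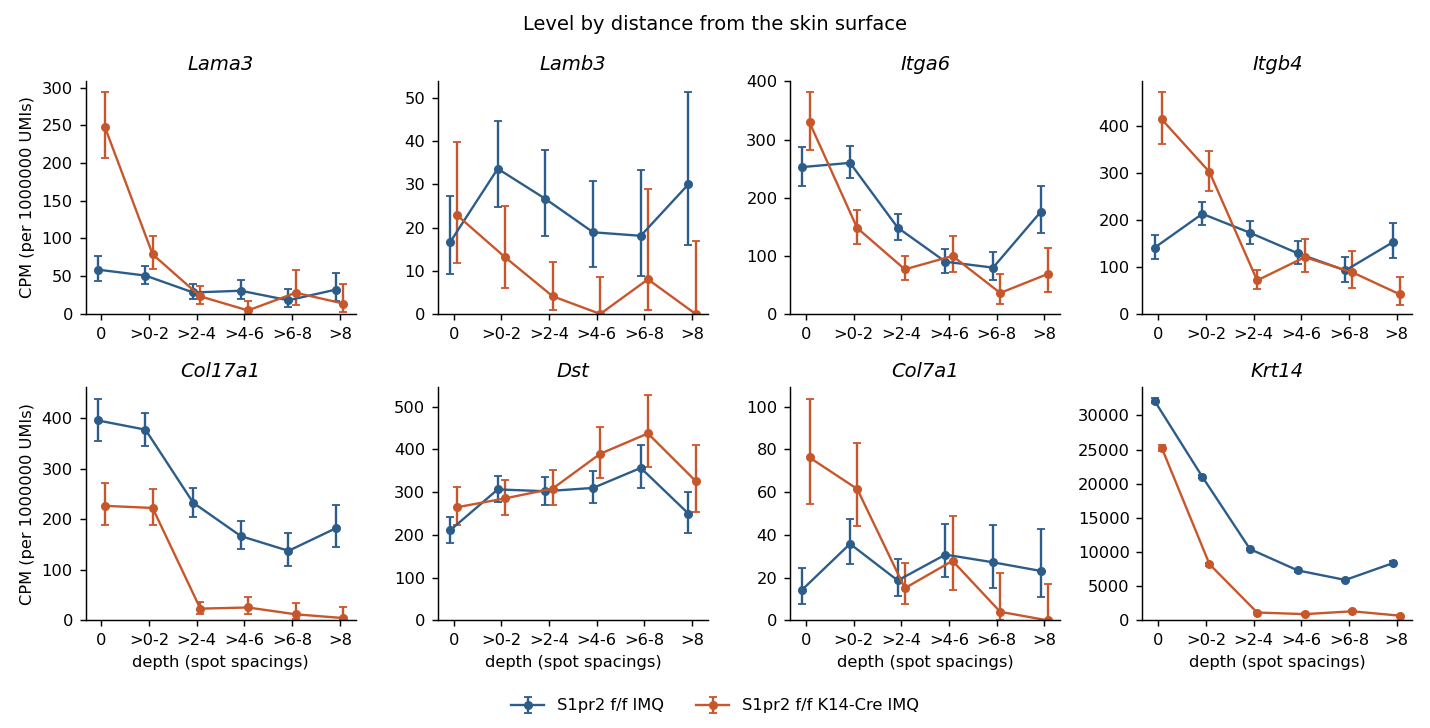
CPM (vertical axes, per 1000000 UMIs, linear from 0) of each member and of *Krt14* by distance from the skin surface in spot spacings (horizontal axes); points are sums over all spots of a depth class in 1 section and bars are 95% exact Poisson intervals. In the S1pr2 f/f K14-Cre section (orange) all members but *Dst* and the low *Lamb3* fell steeply within 4 spacings, *Lama3* from 248 to 23.3 CPM. In the S1pr2 f/f section (blue) *Col17a1* still held 138 CPM at 6 to 8 spacings.

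*Krt14*, the keratin of basal keratinocytes, set the scale for these profiles. Its level fell from 32130 CPM at the surface to 5920 CPM at 6 to 8 spacings in the S1pr2 f/f section, and from 25243 to 1332 CPM in the S1pr2 f/f K14-Cre section. *Krt14* was thus 4.44 times higher at 6 to 8 spacings in the S1pr2 f/f section, and 9.05, 7.99 and 12.3 times higher at 2 to 4, at 4 to 6 and beyond 8 spacings. The hair list (6 of its 7 genes were in the files) summed to 24.8 to 45.3 CPM over all depth classes of that section and the sebaceous list (5 genes) to 306 to 2398 CPM, and in the S1pr2 f/f K14-Cre section to 28.1 to 130 and 494 to 2531 CPM. The part of these structures in the deep *Krt14* level was not tested.

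Per 100 *Krt14* UMIs, *Col17a1* rose in the S1pr2 f/f section from 1.23 UMIs at the surface and 1.79 in the layer beneath to between 2.18 and 2.32 in every deeper class. In the S1pr2 f/f K14-Cre section it showed no steady rise, with 0.898, 2.70, 2.02, 2.78, 0.904 and 0.671 from the surface inwards. The 11 UMIs behind 2.78 all lay in the section ends. *Lama3* lay between 0.183 and 0.420 UMIs in the S1pr2 f/f section. *Dst* rose from 0.655 to 6.02 per 100 *Krt14* UMIs at 6 to 8 spacings in the S1pr2 f/f section and from 1.05 to 32.8 in the S1pr2 f/f K14-Cre section. In the S1pr2 f/f K14-Cre section *Itga6* and *Itgb4* were highest on this scale at 4 to 6 spacings over all spots used. They went from 1.305 to 10.9 and from 1.64 to 13.2 per 100 *Krt14* UMIs. At 6 to 8 spacings they were lower, at 2.71 and 6.63, the former from 9 UMIs. Beyond 8 spacings they were 10.1 and 6.04, from 15 and 9 UMIs. Without the section ends, the class at 4 to 6 spacings had 11 *Itga6* and 29 *Itgb4* UMIs beside 173 of *Krt14*. The class beyond 8 spacings then had 13 and 8 UMIs beside 78 of *Krt14*, so that *Itga6* was highest there on this scale.

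The same order appeared in spots chosen by marker genes. Epidermal spots were the 20% with the highest score over 14 keratinocyte genes, which include neither *Krt14* nor a member, and numbered 218 (1248431 UMIs) in the S1pr2 f/f section and 189 (601111 UMIs) in the S1pr2 f/f K14-Cre section. The lowest score inside and the highest outside were 1.529 and 1.527 in the first and 1.911 and 1.905 in the second. All 14 genes had UMIs in both sets, 55.0% and 65.1% of the spots were outermost ones, and the 14 genes together made up 75377 and 32551 CPM. Dermis-, fat- and muscle-marker-rich spots were chosen likewise from the other spots, and overlap each other in part (80 and 57 spots shared between dermis and fat).

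In the S1pr2 f/f section *Col17a1* had 430 CPM in epidermal, 137 CPM in dermis-marker-rich, 130 CPM in fat-marker-rich and 106 CPM in muscle-marker-rich spots. Those of the S1pr2 f/f K14-Cre section were 250, 47.2, 38.4 and 6.99 CPM. The epidermal level was thus 4.05 times (3.22 to 5.13) and 35.7 times (13.6 to 133) that of muscle-marker-rich spots. *Krt14* behaved alike, with 4.72 times (4.57 to 4.87) and 31.8 times (28.7 to 35.3).

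*Lama3* was 63.3 CPM in epidermal spots and 12.1 to 21.3 CPM in the 3 other regions of the S1pr2 f/f section, and 168 CPM against 3.50 to 11.0 CPM in the S1pr2 f/f K14-Cre section. *Lamb3* was 20.8 CPM in epidermal and 24.2 CPM in dermis-marker-rich spots of the S1pr2 f/f section, which differ by less than their counting error (ratio 0.860, 0.465 to 1.61). Its levels in the S1pr2 f/f K14-Cre section were 19.96 and 3.49 CPM, from 12 and 2 UMIs (ratio 5.71, 1.27 to 52.6).

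*Itga6* was 223, 127, 126 and 61.6 CPM in epidermal, dermis-, fat- and muscle-marker-rich spots of the S1pr2 f/f section, and 294, 101, 78.6 and 43.7 CPM in the S1pr2 f/f K14-Cre section. *Itgb4* was 167, 143, 145 and 89.4 CPM in the former, where the epidermal level did not differ from the dermal one beyond counting error (ratio 1.17, 0.928 to 1.47). Its S1pr2 f/f K14-Cre levels were 413, 117, 93.2 and 45.5 CPM, and the epidermal level was 3.52 times the dermal one (2.68 to 4.69). *Itga6* is also carried by endothelium and *Itgb4* by the sheath of nerves, and both kinds of marker were present in all regions. The 6 endothelial genes summed to 39.2 CPM in epidermal and 175 CPM in dermis-marker-rich spots of the S1pr2 f/f section and to 143 and 166 CPM in the S1pr2 f/f K14-Cre section. The 6 Schwann cell genes summed to 142 and 690 CPM and to 260 and 849 CPM, and the part of these cells in the members' levels was not tested.

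*Col7a1* was 30.4 CPM in epidermal and 32.3 CPM in dermis-marker-rich spots of the S1pr2 f/f section (ratio 0.943, 0.563 to 1.59) and 68.2 and 47.2 CPM in the S1pr2 f/f K14-Cre section (ratio 1.45, 0.868 to 2.44), and neither ratio left out equality. Both keratinocytes and fibroblasts make this collagen. Against muscle-marker-rich spots it was 2.52 times (1.23 to 5.67) and 19.5 times (5.07 to 166) higher.

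*Dst* was the exception in both sections. Its level was 275 CPM in epidermal, 294 CPM in dermis-marker-rich, 294 CPM in fat-marker-rich and 350 CPM in muscle-marker-rich spots of the S1pr2 f/f section, and 251, 274, 289 and 409 CPM in the S1pr2 f/f K14-Cre section. Epidermal over muscle-marker-rich spots gave a ratio of 0.784 (0.669 to 0.920) and 0.614 (0.497 to 0.757). Among genes with at least 200 UMIs in each section, those whose level over 45 depth and position bins was most like that of *Dst* were *Capns1* (Pearson correlation 0.89), *Bsg* (0.88) and, at rank 3 of 2772 genes, *Plec* (0.86), the other plakin of the hemidesmosomal plaque. For *Col17a1* they were *Krt5* (0.90) and *Fxyd3* (0.90), with *Krt14* at rank 10 (0.88). These bins share 2 libraries and the correlations are descriptions. Between members the highest was *Itga6* with *Col17a1* (0.71), and *Dst* ran from -0.36 with *Lama3* to 0.16 with *Lamb3*.

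Against all genes, in epidermal over muscle-marker-rich spots 4 of 7 members were at least 2-fold higher in the S1pr2 f/f section, where 16% of all genes were, and 5 of 6 in the S1pr2 f/f K14-Cre section, where 35.5% were. For epidermal over dermis-marker-rich spots these were 2 of 7 (*Lama3* and *Col17a1*; 7.6% of all genes) and 4 of 6 (17%), and no member was at least 2-fold lower in any of these 4 comparisons, where 22% (S1pr2 f/f) and 16.2% (S1pr2 f/f K14-Cre) of all genes were against muscle-marker-rich spots and 28.7% and 19.2% against dermis-marker-rich spots.

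**Figure D3:**
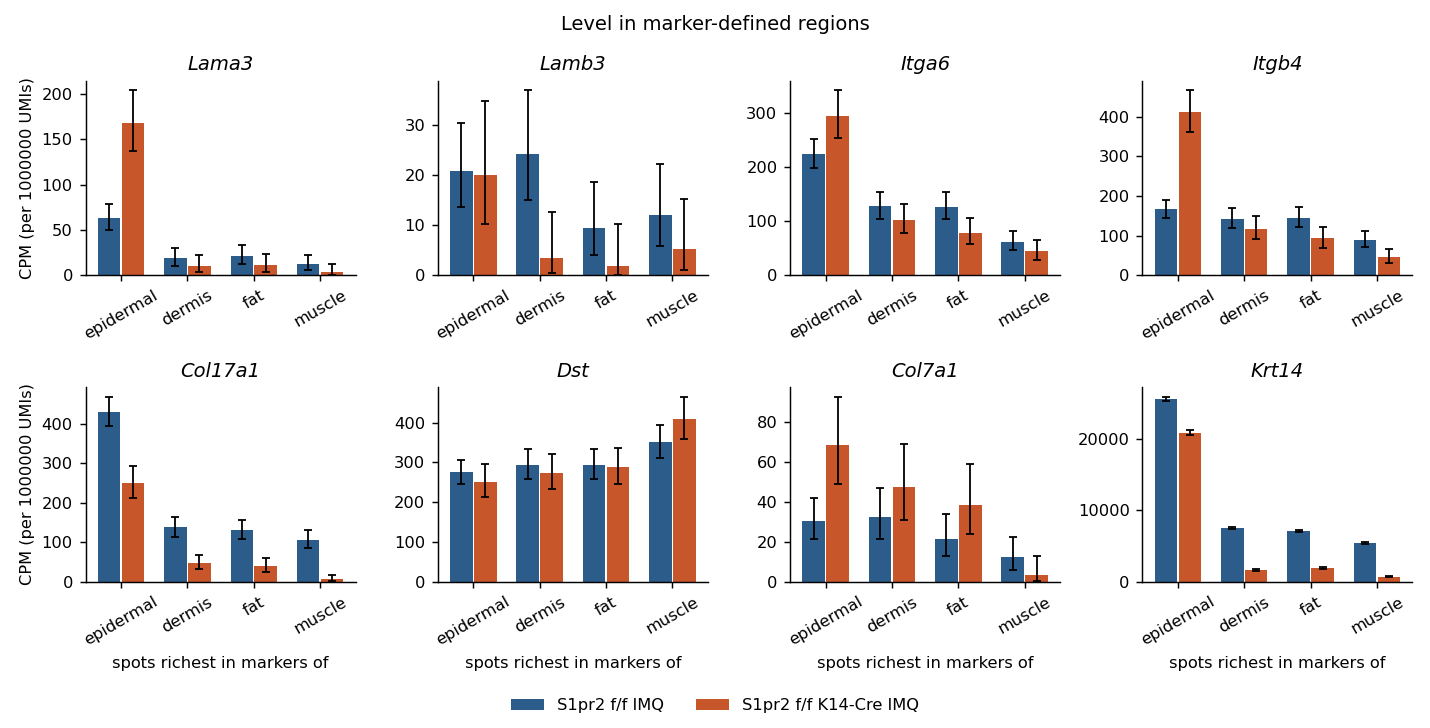
Bars give CPM (vertical axes, per 1000000 UMIs, from 0) of each member and of *Krt14* in the spots richest in epidermal, dermis, fat and muscle markers (horizontal axes) of the S1pr2 f/f (blue) and S1pr2 f/f K14-Cre (orange) sections; lines are 95% exact Poisson intervals. *Dst* is highest in muscle-marker-rich spots (350 and 409 CPM), and *Lama3*, *Itga6*, *Itgb4* and *Col17a1* in epidermal spots of both sections.

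Between the sections, the members did not move together in the epidermal spots. *Lama3*, *Itgb4* and *Col7a1* were more than 2-fold higher in the S1pr2 f/f K14-Cre section, *Itga6* was modestly higher, *Col17a1* was lower, and *Lamb3* and *Dst* did not differ beyond counting error. These 3 of 7 members at least 2-fold higher stand beside 24.2% of all genes tested, and the 0 of 7 at least 2-fold lower beside 10.5%. By the interval of the log2 ratio, 4 of 7 lay above 0 (31.7% of all genes) and 1 of 7 below (15.8%), and the median log2 ratio was 0.40 for the members and 0.27 for all genes. The share of genes higher in the S1pr2 f/f K14-Cre section depends on depth: over genes with 100 or more UMIs, 10.8% stood 2-fold or more higher and 14.1% 2-fold or more lower. TMM and median-of-ratios scaling moved every log2 ratio by -0.71 and -0.79, and with either no member was at least 2-fold higher, *Lama3* (0.70 and 0.62) and *Itgb4* (0.60 and 0.52) still had intervals above 0, *Col17a1*, *Dst* and *Itga6* had intervals below 0, and that of *Col7a1* held 0. Each scaling moves all members alike, so their order cannot differ between the 3 scales.

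Of the laminin chains, *Lama3* had 79 UMIs (63.3 CPM) in the S1pr2 f/f and 101 UMIs (168 CPM) in the S1pr2 f/f K14-Cre epidermal spots, a log2 ratio of 1.41 (0.97 to 1.85). *Lamb3* had 26 and 12 UMIs (20.8 and 19.96 CPM), a log2 ratio of -0.06 (-1.18 to 0.98). Its 12 UMIs lie below 16.8 UMIs, the 99th percentile of the receptor genes in those spots, so its level there is not told apart from background.

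Of the integrin pair, *Itgb4* had 208 and 248 UMIs (167 and 413 CPM), a log2 ratio of 1.31 (1.04 to 1.58), and *Itga6* 278 and 177 UMIs (223 and 294 CPM), a log2 ratio of 0.40 (0.12 to 0.68). *Itgb4* UMIs per *Itga6* UMI went from 0.748 to 1.40 (ratio 1.87, 1.44 to 2.44), and this ratio does not depend on the scale. With TMM or median-of-ratios scaling *Itga6* was lower in the S1pr2 f/f K14-Cre section (log2 ratios of -0.30 and -0.39), so its direction is unsettled. The other integrin chains of keratinocytes gave log2 ratios of 0.27 (*Itga3*, -0.65 to 1.15) and 0.48 (*Itgb1*, 0.0007 to 0.94), and the tetraspanin *Cd151*, which sits beside these integrins, one of 0.21 (-0.30 to 0.70).

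*Col17a1* had 537 and 150 UMIs (430 and 250 CPM), a log2 ratio of -0.79 (-1.06 to -0.52), and was the one member lower in the S1pr2 f/f K14-Cre section. *Itgb4* UMIs per *Col17a1* UMI went from 0.387 to 1.65 (ratio 4.27, 3.30 to 5.53) and *Lama3* UMIs per *Col17a1* UMI from 0.147 to 0.673 (ratio 4.58, 3.24 to 6.47). *Col7a1* had 38 and 41 UMIs (30.4 and 68.2 CPM), a log2 ratio of 1.16 (0.49 to 1.84). *Dst* had 343 and 151 UMIs (275 and 251 CPM), a log2 ratio of -0.13 (-0.42 to 0.15), and *Plec* 571 and 286 UMIs (457 and 476 CPM), a log2 ratio of 0.06 (-0.15 to 0.26).

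Relative to *Krt14*, which was itself lower in the S1pr2 f/f K14-Cre section (25641 and 20875 CPM, log2 ratio -0.30), each member's ratio shifted up by the same amount. *Krt5* hardly differed between the sections (log2 ratio -0.03, -0.10 to 0.03), so a scale by *Krt5* moves the ratios little. Per 100 *Krt14* UMIs, *Lama3* went from 0.247 to 0.805, *Itgb4* from 0.650 to 1.98, *Col7a1* from 0.119 to 0.327 and *Itga6* from 0.868 to 1.41. *Col17a1* went from 1.68 to 1.20, still lower (log2 ratio -0.49, -0.76 to -0.23). *Dst* went from 1.07 to 1.20 (log2 ratio 0.17, -0.12 to 0.45) and *Lamb3* from 0.0812 to 0.0956. On this scale 4 members again lay above and 1 below, with a median log2 ratio of 0.70, and the sum of the 7 members had a log2 ratio of 0.57 (0.45 to 0.69).

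**Figure D4:**
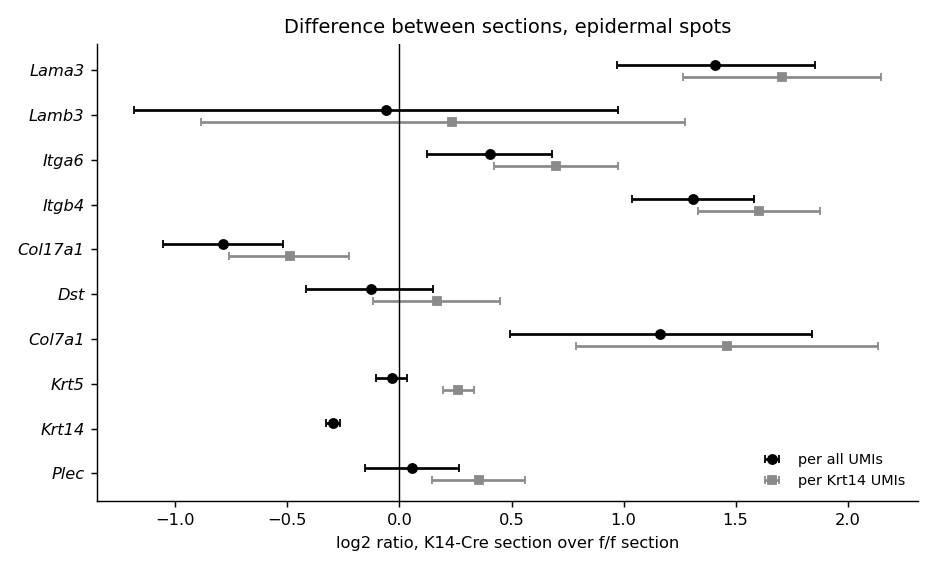
Log2 ratio of the S1pr2 f/f K14-Cre over the S1pr2 f/f section in epidermal spots (horizontal axis) for the members and 3 further genes of the junction (*Krt5*, *Krt14*, *Plec*), per all UMIs (black circles) and per *Krt14* UMIs (grey squares), with 95% intervals of counting error. *Lama3* (1.41), *Itgb4* (1.31) and *Col7a1* (1.16) lie to the right of 0 and *Col17a1* (-0.79) to the left on both scales.

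The wider lists put these values in place. Of 7 further genes of the junction (*Plec*, *Cd151*, *Itga3*, *Itgb1*, *Fermt1*, *Krt5* and *Krt14*), the interval of 1 lay above 0 (*Itgb1*) and of 1 below (*Krt14*), none was 2-fold different, and the median log2 ratio was 0.06. Of 20 general basement membrane genes, 13 had at least 20 UMIs. The intervals of 7 lay above 0 and of none below, beside 31.7% and 15.8% of all genes, and the median log2 ratio was 0.70. *Col4a1*, a chain of the network collagen of all basement membranes, was 115 and 379 CPM (log2 ratio 1.73). *Lama2* was 14.4 and 46.6 CPM (18 and 28 UMIs, log2 ratio 1.69, 0.79 to 2.63). *Nid2* was 16.02 and 43.3 CPM (20 and 26 UMIs, log2 ratio 1.43, 0.54 to 2.35). At least 2-fold higher were 5 of the 13, beside 24.2% of all genes. At least 2-fold lower was 1, beside 10.5%, namely *Lamb2* (17.6 and 6.65 CPM, 22 and 4 UMIs, interval from -3.40 to 0.15). Among the 5 were *Lamc3* (8 and 12 UMIs) and *Lama5* (14 and 14 UMIs, interval from -0.12 to 2.23). The S1pr2 f/f K14-Cre counts of *Lamc3*, *Lama5* and *Lamb2* lie below 16.8 UMIs, the 99th percentile of the receptor genes there. Their levels are thus not told apart from background.

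Other cell types moved with these values. In the epidermal spots of the S1pr2 f/f and S1pr2 f/f K14-Cre sections the 9 dermis genes summed to 5633 and 9308 CPM, the 7 muscle genes to 2491 and 4206 CPM, and the hair genes to 28.0 and 111 CPM. The hair sums are low, and the receptor genes taken as background stood 5.62 times higher in the S1pr2 f/f K14-Cre spots. The part of background in the hair sums was not tested. Among keratinocyte genes, the basal list (6 genes) had a median log2 ratio of -0.12 with 1 interval below 0. By contrast, 7 of 8 suprabasal genes and all 6 hyperproliferation genes lay below 0, beside 15.8% of all genes. *Krt10* had a log2 ratio of -2.62 and *Krt16* one of -1.53, while the suprabasal gene *Tgm1* was higher (0.63, 0.48 to 0.79). *Krt10* and other genes of the suprabasal and basal lists are also among the 14 that chose the epidermal spots. The part of these shifts in the members' differences was not tested.

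Along the section, the difference held in most stretches for *Itgb4* and *Lama3*. Epidermal spots were divided into 4 segments of equal spot number by array column, which are not replicates. *Itgb4* was 162, 163, 113 and 190 CPM in the segments of the S1pr2 f/f section and 449, 390, 375 and 377 CPM in those of the S1pr2 f/f K14-Cre section, with no overlap. *Lama3* was 69.8, 59.7, 51.2 and 59.6 CPM against 191, 207, 62.5 and 171 CPM, so that 1 segment of the latter, with 6 UMIs, fell within the range of the former.

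*Col17a1* was 490, 394, 246 and 417 CPM against 241, 146, 292 and 299 CPM. The S1pr2 f/f segment of 246 CPM, which held 24 UMIs, reached into the range of the other section. *Itga6* was 243, 191, 297 and 195 CPM against 375, 195, 188 and 263 CPM, and the ranges overlapped. *Dst* (205 to 338 against 104 to 340 CPM) and *Col7a1* (17.0 to 81.9 against 41.7 to 81.4 CPM) overlapped as well.

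The first segment carried 530253 of the S1pr2 f/f UMIs, and without the first segment of both sections the count of members above 0 dropped from 4 to 2. *Itga6* then had a log2 ratio of 0.10 (-0.33 to 0.52) and *Col7a1* one of 0.48 (-0.45 to 1.38), while *Lama3*, *Itgb4* and *Col17a1* stayed on their side of 0.

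**Figure D5:**
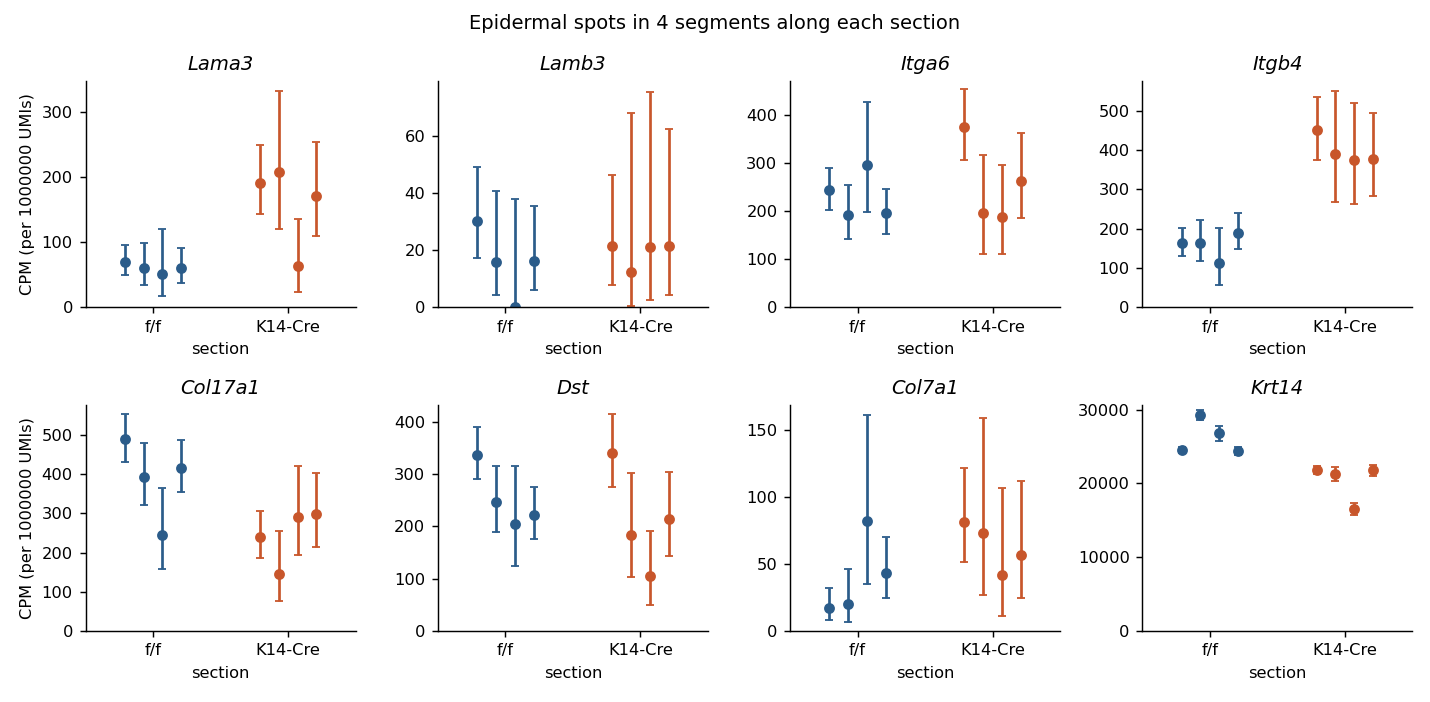
CPM (vertical axes, per 1000000 UMIs, from 0) of each member and of *Krt14* in the epidermal spots of 4 segments along each section; points are segments in order of array column and bars are 95% exact Poisson intervals. The segments of the 2 sections do not overlap for *Itgb4* (113 to 190 and 375 to 449 CPM) and *Krt14*, and overlap for the other members.

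Within the epidermal spots, *Itga6* rose with *Krt14* in the S1pr2 f/f K14-Cre section. When spots were ranked by *Krt14* CPM and split into 3 equal sets, *Itga6* in the highest set was 3.17 times (2.04 to 5.10) that in the lowest in the S1pr2 f/f K14-Cre section (448 against 141 CPM) and 0.873 times (0.623 to 1.22) in the S1pr2 f/f section. *Krt5* gave 2.16 and 1.03 times. In the S1pr2 f/f section *Col17a1* was lower in the highest set (295 against 489 CPM, ratio 0.603, 0.472 to 0.768), and so was *Dst* (191 against 395 CPM, ratio 0.484, 0.360 to 0.647). For *Lama3*, *Lamb3*, *Itgb4* and *Col7a1* the interval held 1 in both sections.

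With every spot thinned to 1000 UMIs, which left 193 and 170 epidermal spots, *Itgb4* was found in 13.0% (8.56% to 18.5%, Clopper-Pearson) of S1pr2 f/f and 28.8% (22.1% to 36.3%) of S1pr2 f/f K14-Cre spots, and *Col17a1* in 31.6% (25.1% to 38.7%) and 18.8% (13.2% to 25.5%). Without thinning these shares were 42.2% and 43.9% for *Itgb4* and 59.6% and 35.4% for *Col17a1*. In thinned muscle-marker-rich spots they were 6.40% and 1.72% for *Itgb4* and 6.40% and 1.15% for *Col17a1*. *Dst* was found in 19.7% and 15.9% of thinned epidermal spots and in 30.2% and 30.5% of thinned muscle-marker-rich spots. The intervals of these shares take spots as separate trials, although spots are not replicates, and cover no spread between mice.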

How the data were processed

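Formalin-fixed skin sections of 10 µm were measured with a probe-based spatial kit (Visium CytAssist). Per the file headers, Space Ranger 3.0.0 produced the deposited values, which are un-normalized UMI counts, and the labels name build mm10; the probe set was not given in the sources used here, so levels are not compared between genes. Counts were summed over spots in connected groups of at least 20 spots with at least 500 UMIs and divided by all UMIs of the same spots (CPM). Intervals are exact Poisson (CPM), conditional binomial (ratios) and Clopper-Pearson (shares), at 95%. For the change between sections in UMIs of 1 member per UMI of another, a normal approximation on the log scale was used. All cover counting error only, and those of shares take spots as separate trials. Ratios and their intervals were run on simulated independent Poisson counts, the model they assume. This checks the arithmetic only, because the simulation held no clustering of UMIs in spots. Bins for the likeness of patterns were depth class by segment of both sections, with log2(CPM + 10). Background shares took genes with at least 20 UMIs over the spots compared. Named genes are the members, *Krt14*, single genes of 2 lists (further junction genes, general basement membrane genes) and the genes most alike in pattern; any other was picked with its value known. A gene of the first list is not reported here. The members and lists were chosen with earlier results of these data known. Alternatives were other shares of spots, position alone, TMM (edgeR 4.0.16) and median-of-ratios (DESeq2 1.42.0) scaling in R 4.3.3, keratins as scale, background taken off and thinning; sums ran in Python 3.11.15 with scipy 1.17.1. Leaving out segments, and all outermost spots, were added after seeing the data.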

Additional observations from a re-analysis of the deposited data

Results flagged for a closer look

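For the contrasts given here, ratios of some members lay below 1 in the S1pr2 f/f and above 1 in the S1pr2 f/f K14-Cre section, with 1 section each and no test of the difference. Every S1pr2 f/f interval held 1, so no direction is shown there. For the outermost spots over those beyond 8 spacings, *Itgb4* had a ratio of 0.922 (0.680 to 1.26) in the S1pr2 f/f and 10.0 (5.17 to 22.2) in the S1pr2 f/f K14-Cre section. Without the curved ends the former turned to 1.27 (0.550 to 3.62) and the latter was 9.30 (4.54 to 22.1). *Lamb3* had ratios of 0.553 (0.246 to 1.26) and, with 0 UMIs taken as 3 over the class, 1.66. Its S1pr2 f/f K14-Cre counts were 12 and 0 UMIs, close to background, and the interval began at 1.15. *Col7a1* had ratios of 0.623 (0.252 to 1.59) and, with 0 UMIs again taken as 3, 5.53. Its S1pr2 f/f K14-Cre counts were 40 and 0 UMIs, and the interval began at 4.29. For epidermal over dermis-marker-rich spots *Lamb3* had ratios of 0.860 (0.465 to 1.61) and 5.71 (1.27 to 52.6), the latter from 12 and 2 UMIs. *Col7a1* had ratios of 0.943 (0.563 to 1.59) and 1.45 (0.868 to 2.44), and both intervals held 1.

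Spots over tissue that entered no comparison, in small groups or with few UMIs, held 53 UMIs of the members among 60078 UMIs in the S1pr2 f/f section and 5 among 9117 in the S1pr2 f/f K14-Cre section.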

How the results depend on the processing

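No paired analysis was possible because each genotype has 1 section, and no replicate could be left out for the same reason. Over 18 alternatives, some with spots other than the epidermal ones, the direction of 4 members did not change by point value. *Lama3* (log2 ratios of 0.62 to 2.33), *Itgb4* (0.30 to 1.79) and *Col7a1* (0.35 to 2.40) were higher in the S1pr2 f/f K14-Cre section. *Col17a1* (-1.58 to -0.49) was lower. The 0.30 of *Itgb4* was over all spots over tissue and the 2.40 of *Col7a1* in all outermost spots. The 0.35 of *Col7a1* came from 8 and 9 UMIs after thinning. Its interval held 0 with either scaling and without segment 1. *Itga6* turned to -0.10 in the 2 outermost tissue spots of each array column, -0.37 over all spots, -0.30 with TMM, -0.39 with median-of-ratios scaling and -0.18 as the mean over spots of CPM. *Lamb3* ran from -1.46 to 1.03 and *Dst* from -0.92 to 0.33. The count of members with an interval above 0, 4, was 2 with TMM, with median-of-ratios scaling, after thinning to 1000 UMIs and without segment 1. The count below 0, 1, was 3 over all spots and with either scaling. At least 2-fold higher were 0 members, in place of 3, over all spots and with either scaling, and at least 2-fold lower, in place of 0, 2 members over all spots and 1 with TMM and with median-of-ratios scaling. The sum of the members per *Krt14*, 0.57 on the log2 scale, was 0.37 with the highest 10% of spots and 0.86 in the 2 outermost spots of each column, and 0.53 to 0.61 with a segment left out. The share of all genes at least 2-fold higher, 24.2%, was 47.8% with no minimum and 10.8% with at least 100 UMIs. The ratios over depth and between epidermal and muscle-marker-rich spots for the sum of the members kept their direction under the alternatives run, and so did that of *Dst*. Apart from scale and fewer UMIs the cause of these moves was not tested. *Lamb3* and *Col7a1* are limited by depth, with 12 to 41 UMIs in the epidermal spots of a section.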
